A study of Mus musculus with 6 samples.

Results

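The cytoplasmic ribosome of the mouse is built from ribosomal RNA and a fixed set of proteins, named Rpl for the large (60S) subunit and Rps for the small (40S) subunit. The genes were chosen by name: RefSeq protein-coding genes of the GRCm38 assembly whose symbol is Rpl or Rps followed by a digit or by p, together with Rpsa, without the Rps6k kinases and without like-genes ending in l, l1 or l2, except that Rpl3l was kept. This gave 84 of 21887 protein-coding genes. Of these, 77 were counted as the ribosomal protein genes (46 of the large and 31 of the small subunit). The other 7 entries were kept apart: Rpl3l, the muscle paralog of Rpl3, and Rps19bp1, Rpl37rt, Rps27rt, Rpl34-ps1, Rpl31-ps12 and Rps23rg1. The rule used names, not measured values, and it also left out 10 Rps6k genes and 7 like-genes.

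Each ribosome needs its proteins in nearly equal numbers, and a growing cell makes them in very large amounts, so their genes are among the most active in most tissues. Many mammalian ribosomal protein transcripts begin with a C followed by a run of pyrimidines, the terminal oligopyrimidine (TOP) motif, through which mTOR signalling sets their translation. Many of the genes also hold small nucleolar RNA (snoRNA) genes in their introns, and processed copies of their mRNAs are scattered over the genome as pseudogenes. Neurons carry ribosomes into axons, and embryonic sensory neurons make them while axons are growing.

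The study isolated TrkC neurons, the future proprioceptive neurons that report muscle stretch, from dorsal root ganglia of mouse embryos at stage E11.5. All samples carried the Runx3-BAC-GFP-CB6 transgene, a bacterial artificial chromosome that drives green fluorescent protein from Runx3 regulatory sequence, and cells were sorted for that fluorescence after fixation. ATAC-seq, which marks open chromatin by transposase insertion, and ChIP-seq for H3K27ac, a histone mark of active promoters and enhancers, had 2 samples each, and 2 input DNA samples were not used here. No second genotype, age or cell type was sampled, so each comparison below sets the ribosomal protein genes beside other genes of the same cells.

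The values were the positions of peaks in 1 consensus list per assay, 43739 for ATAC and 19928 for H3K27ac, with no score, so depth and the spread between replicates are unknown. The cell type label was checked against markers at gene ends. Among 10 sensory neuron markers, 6 had both marks, including Isl1, Pou4f1 and Tubb3. Ntrk3, which encodes TrkC, had no peak of either assay within 1 kb of an end, but 7 ATAC and 4 H3K27ac peaks lay inside the gene, and Runx3 had ATAC but no H3K27ac at an end. Prrxl1 had peaks inside only, and Avil had none at an end or inside. Both marks were present at 3 of 6 glial and neural crest markers. They were present at 0 of 6 blood, 0 of 5 endothelial and 1 of 5 mesenchyme and muscle markers (Twist1). Of all protein-coding genes, 47.8% had both. Neurons first and in that order, ATAC was at 7 of 10, 4 of 6, 1 of 6, 2 of 5 and 5 of 5. H3K27ac was at 6 of 10, 5 of 6, 1 of 6, 0 of 5 and 1 of 5. All genes stood at 60.4% for ATAC and 49.3% for H3K27ac. These few markers thus do not settle the cell type. What part cells other than neurons had in the peak lists was not tested.

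The letters around the starts of these genes are shown first, since the peaks described below lie on them. RefSeq promoters were listed for 57 of the 77 ribosomal protein genes. Each line gives 45 bases before the listed start and the first 20 bases of the transcript on GRCm38, with the unbroken pyrimidine run that crosses the start in capitals. Rps6 (chr4:86857348-86857412, minus strand) encodes the small subunit protein phosphorylated by the S6 kinases. Rpl28 (chr7:4792920-4792984, plus strand) and Rplp2 (chr7:141447606-141447670, plus strand) belong to the large subunit, Rplp2 to its stalk. Rps18 (chr17:33955646-33955710, minus strand) lies in the small subunit head. All 4 begin with a pyrimidine run of the TOP kind.
Rps6: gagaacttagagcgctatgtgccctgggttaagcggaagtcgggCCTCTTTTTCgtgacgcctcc
Rpl28: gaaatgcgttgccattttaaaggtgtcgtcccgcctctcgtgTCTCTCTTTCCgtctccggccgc
Rplp2: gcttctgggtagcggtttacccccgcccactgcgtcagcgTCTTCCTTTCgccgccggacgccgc
Rps18: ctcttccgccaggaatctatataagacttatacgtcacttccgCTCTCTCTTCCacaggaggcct

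Another pair shows a gene and its copy. Rps27 (chr3:90213629-90213693, minus strand) had both marks at its start. Rps27rt (chr9:114982720-114982784, minus strand), a retrotransposed copy annotated as protein-coding, had neither within 1 kb of an end. In the listed promoter windows they share 38 bases in a row, which run from the second transcribed base of Rps27 and from the first of Rps27rt, while the letters before the start differ.
Rps27: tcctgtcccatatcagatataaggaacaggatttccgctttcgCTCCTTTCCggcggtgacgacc
Rps27rt: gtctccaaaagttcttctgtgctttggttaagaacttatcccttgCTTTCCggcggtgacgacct

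The last set shows CCGGAAG, the core that ETS factors such as GABPA bind, in capitals. In Rpl11 (chr4:136053374-136053438, minus strand) and Rpl26 (chr11:68901521-68901585, plus strand) these letters lie just inside the transcript. In Rps3a1 (chr3:86142649-86142713, minus strand) they lie just before the start, and in Rpl38 (chr11:114668535-114668599, plus strand) they lie upstream of a pyrimidine run, which is in lower case here.
Rpl11: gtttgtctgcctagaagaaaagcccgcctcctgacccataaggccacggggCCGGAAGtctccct
Rpl26: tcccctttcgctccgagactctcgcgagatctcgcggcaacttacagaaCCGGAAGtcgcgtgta
Rps3a1: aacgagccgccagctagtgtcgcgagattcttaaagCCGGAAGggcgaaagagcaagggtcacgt
Rpl38: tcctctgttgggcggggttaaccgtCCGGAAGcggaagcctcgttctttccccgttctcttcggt

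Nearly every ribosomal protein gene was both open and acetylated at an end. A gene was called open where an ATAC peak, and acetylated where an H3K27ac peak, shared at least 1 bp with a window that reached 1 kb to each side of an annotated gene end, at the start or the finish of the gene. Of the 84 genes chosen by name, 78 (92.9%) were open, against 60.4% of all protein-coding genes, and 78 (92.9%) were acetylated, against 49.3%. Both marks were present at 77 of the 84 (91.7%), against 47.8% of all genes, and the peaks overlapped each other at 76 (90.5%), against 46.4%. A peak in a bulk list does not tell how many of the sorted cells carried it.

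Among the 77 genes of the ribosome itself, 75 were open (97.4%, 95% Wilson interval 91.0 to 99.3) and 76 acetylated (98.7%, 93.0 to 99.8), and all 75 open genes were also acetylated. Of all open genes, 79.1% were acetylated. These intervals cover counting over genes only. The genes are short, with a median span of 3175 bp against 17169 bp for all genes, so that the windows at the ends reach over much of each gene. The comparison was therefore also made with the 4022 other genes between 1418 and 6725 bp, the 5th to 95th percentile of the ribosomal protein genes: 51.5% of these were open, 40.0% acetylated and 38.3% both. With a peak anywhere in the gene or within 1 kb of it, 77 of 77 ribosomal protein genes had peaks of both assays, against 70.1% of all genes with ATAC and 55.5% with H3K27ac.

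**Figure D1:**
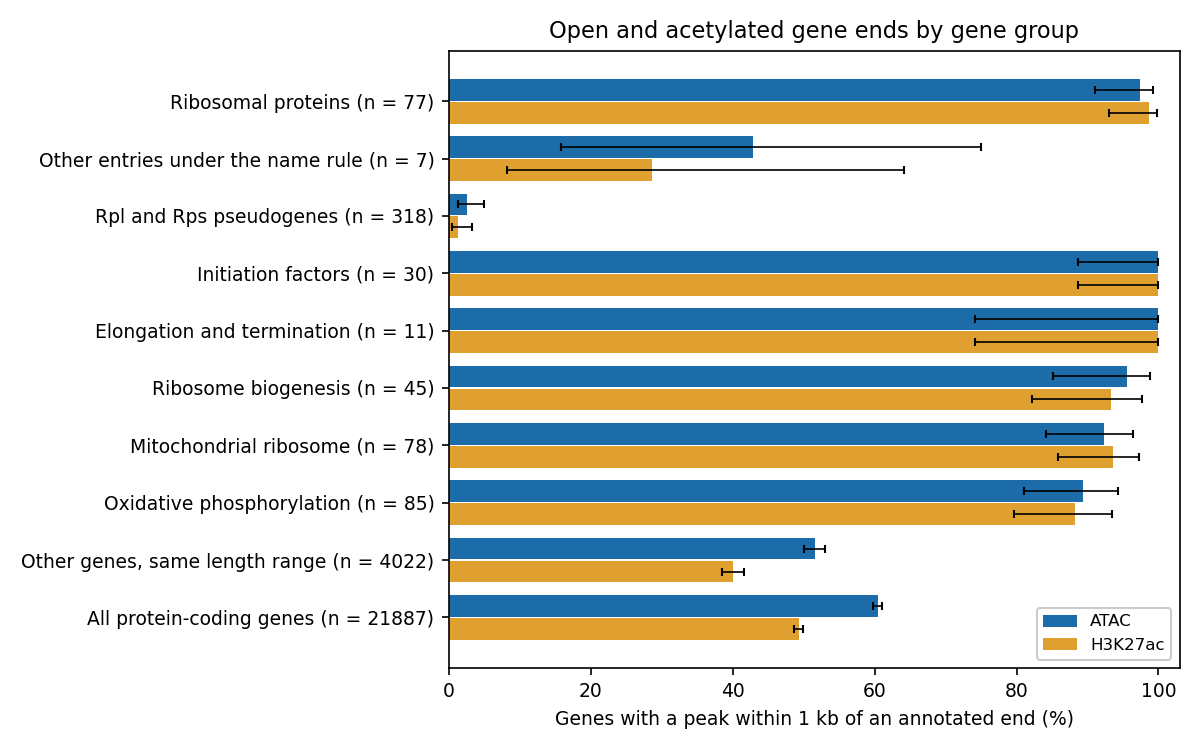
Share of genes (%) with a peak of each assay at most 1 kb from an annotated end, by gene group, with 95% Wilson intervals as error bars and the number of genes in brackets. The 77 ribosomal protein genes stand at 97.4% for ATAC and 98.7% for H3K27ac, the 318 pseudogenes named after them at 2.52% and 1.26%, and all protein-coding genes at 60.4% and 49.3%.

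Both genes of the ribosome that lacked an ATAC peak at an annotated end held one further inside. Rps2 (chr17:24718121-24721927), a small subunit protein near the decoding centre, had an ATAC peak of 329 bp at chr17:24719849-24720177, 1728 bp from the nearer annotated end, and its H3K27ac peak lay 909 bp from an end. The RefSeq start listed for Rps2 lies 1942 bp inside the annotated span and falls within that ATAC peak. Rpl17 (chr18:74998978-75003381), a large subunit protein at the peptide exit, had an ATAC peak of 524 bp at 1435 bp and its H3K27ac peak at 1398 bp from the nearer annotated end. Rpl17 was the only one of the 77 with neither mark at an end. Just inside the 1 kb limit lay Rpl22, an RNA-binding large subunit protein known for its role in lymphocyte development. Its call as open rested on a 133 bp peak 881 bp from the finish of the gene, whereas its H3K27ac peak lay 955 bp from the start. These marks thus lay at opposite ends of Rpl22. An ATAC peak of 378 bp lay inside that H3K27ac peak, 1174 bp from the start and so outside the window.

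Of the 7 other entries under the name rule, 3 were open and 2 acetylated at an end. Rps19bp1, which encodes a nucleolar protein that binds RPS19, had an ATAC peak of 285 bp and an H3K27ac peak of 647 bp. Rpl3l, the form of Rpl3 found in striated muscle, was called open and acetylated by peaks of 279 and 843 bp, and these peaks overlapped an end of the neighbouring gene Msrb1. No peak lay at the listed start of Rpl3l, from which the nearest ATAC peak was 3274 bp away. Rpl34-ps1 had a 136 bp ATAC peak alone, and Rpl37rt, Rps27rt, Rpl31-ps12 and Rps23rg1 had neither mark at an end. Of the like-genes left out by the rule, Rpl22l1, Rpl36al and Rpl7l1 had both marks, Rps27l was acetylated only, and Rpl10l, Rpl32l and Rpl39l had neither.

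Pseudogenes named after ribosomal proteins rarely carried a peak. Of 318 annotated Rpl and Rps pseudogenes, a list chosen after the peaks were seen, 8 were open (2.52%) and 4 acetylated (1.26%), with both marks at Rpl21-ps7 alone. Of the 235 that lie over 2 kb from protein-coding genes, 4 were open and 3 acetylated. All 10429 annotated pseudogenes stood at 5.04% and 1.76%. Reads from recent copies can match several places in the genome, and how the authors treated such reads is not given in the sources used here, so a missing peak at a copy is not a measurement of closed chromatin.

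The large and the small subunit had similar shares and widths, with no test made of a difference. In the large subunit 45 of 46 genes were open and 45 of 46 acetylated, and in the small subunit 30 of 31 were open and 31 of 31 acetylated. The widest ATAC peak at an end had a median width of 473 bp in large subunit and 475 bp in small subunit genes, and the widest H3K27ac peak 1696 bp and 1690 bp. They were less alike in acetylation at both ends, with 8 of 46 large subunit genes (17.4%) and 13 of 31 small subunit genes (41.9%). Ends apart from other genes were found in 39.1% of large subunit and 61.3% of small subunit genes.

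H3K27ac peaks at ribosomal protein genes were mostly wider than the median of all acetylated genes and rather even in width. Over the 76 acetylated genes their median was 1693 bp (quartiles 1459 to 2196), against 1317 bp (863 to 1861) for all 10782 acetylated genes, and 65 of the 76 (85.5%) lay above that median. The spread of widths on the log2 scale was 0.43 for ribosomal protein genes, against 0.91 for all acetylated genes (SD over genes). Between 1 and 3 kb lay 71 of the 76, and the widest, 3678 bp at Rpl7, was far from the 85798 bp of the widest domain at any gene. ATAC peaks had a median of 473 bp (quartiles 337 to 559) in 75 ribosomal protein genes, against 431 bp (309 to 579) in all 13223 open genes. The spread was 0.58, against 0.68 on the log2 scale.

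**Figure D2:**
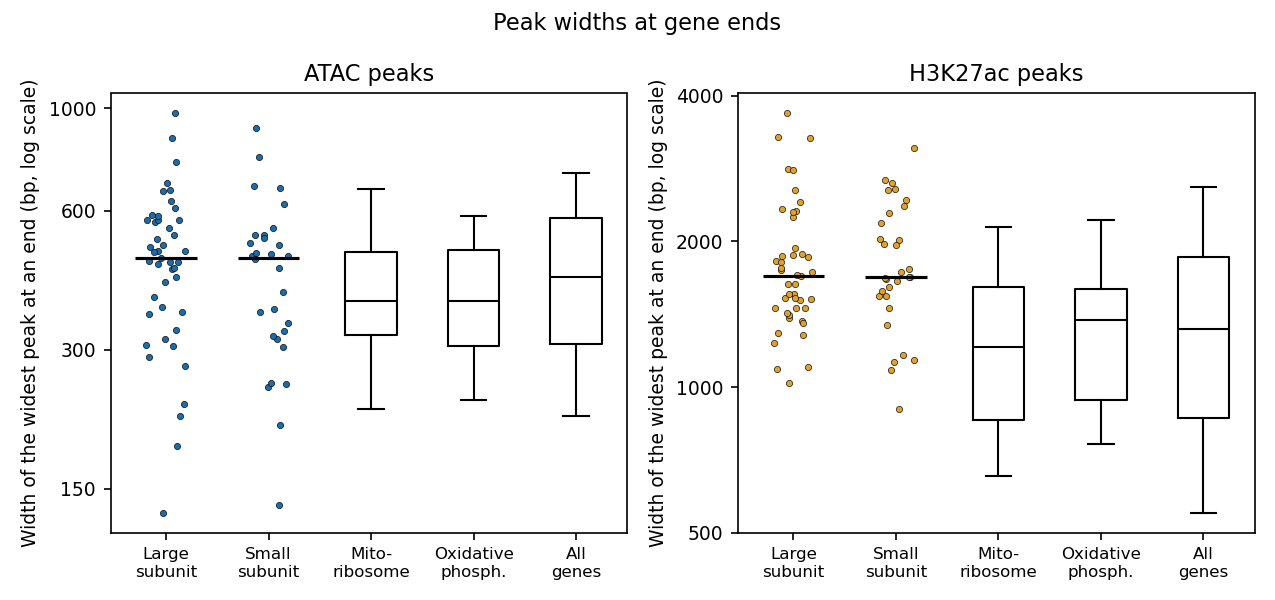
Width in bp, on a log axis, of the widest ATAC peak (left panel) and H3K27ac peak (right panel) within 1 kb of an end. Points are single ribosomal protein genes with a line at the median, and boxes give the quartiles and median, with whiskers to the 10th and 90th percentile, for the mitochondrial ribosome, oxidative phosphorylation and all genes. The H3K27ac medians of the large and small subunit, 1696 and 1690 bp, lie above the 1317 bp of all acetylated genes.

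The widest H3K27ac peaks belonged to Rpl7 (3678 bp), Rpl13a (3285 bp), Rpl41 (3269 bp), Rps10 (3127 bp) and Rpl10 (2825 bp). Rpl10 encodes one of the last proteins to join the large subunit, and Rpl41 a peptide at the subunit interface. Of these 5 peaks, 2 also reached another gene: the peak of Rpl7 overlapped an end of Rdh10 and that of Rpl41 an end of Zc3h10. The narrowest were at Rps20 (899 bp), Rpl5 (1022 bp), Rps24 (1085 bp), Rpl8 (1091 bp) and Rpl18 (1098 bp). The Rpl18 peak lay at an annotated end, whereas its listed start lies 2604 bp inside the span, under another H3K27ac peak from -851 to 990 bp of that start. For ATAC the widest peaks were at Rpl7 (975 bp), Rps29 (906 bp), Rpl9 (863 bp), Rps19 (784 bp) and Rpl6 (765 bp). The Rpl9 peak also overlapped an end of Lias. The narrowest ATAC peaks were at Rpl22 (133 bp, at the finish of the gene), Rps26 (138 bp), Rpl35a (186 bp), Rps9 (206 bp) and Rpl8 (216 bp). Rpl7 led both lists of widths and Rpl8, near the peptidyl transferase centre, was low in both, but Rps9 joined a 206 bp ATAC peak to an H3K27ac peak of 2674 bp.

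Genes with a known special role lay within this range. Rpl5 and Rpl11, which bind Mdm2 together with 5S RNA when ribosome assembly fails, had ATAC peaks of 584 and 465 bp and H3K27ac peaks of 1022 and 1742 bp. Rps19 and Rps14, whose human forms are affected in Diamond-Blackfan anaemia and in the 5q- syndrome, had ATAC peaks of 784 and 532 bp and H3K27ac peaks of 2550 and 1756 bp. Rps6 had 550 and 2179 bp, and Rpsa, also known as the laminin receptor, 510 and 1661 bp, for ATAC and H3K27ac in that order. All 6 of these genes had both marks at an end, with only Rpl5 among the narrowest and only Rps19 among the widest peaks.

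Rpl3, at the peptidyl transferase centre, had an ATAC peak of 276 bp and an H3K27ac peak of 2309 bp. Rps3, at the mRNA entry, had 401 and 1612 bp, and Rps27a, made as a fusion with ubiquitin, had 254 and 1964 bp. The stalk proteins Rplp0, Rplp1 and Rplp2 had ATAC widths of 532, 574 and 661 bp and H3K27ac widths of 1522, 1459 and 1360 bp. Among these 3 the wider ATAC peak went with the narrower H3K27ac peak. Rpl38, whose loss in the mouse alters the axial skeleton, had 305 and 1283 bp.

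All 4 X-linked ribosomal protein genes, Rpl10, Rpl36a, Rpl39 and Rps4x, had both marks. Their ATAC widths were 289, 607, 229 and 342 bp and their H3K27ac widths 2825, 1232, 1409 and 1136 bp, with medians of 315.5 and 1320.5 bp. Apart from Rpl10, their H3K27ac peaks were below the median of 1693 bp over all 76. Embryo sex is not given in the sources used here.

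Acetylation covered a large part of many of these short genes. H3K27ac peaks covered a median of 39.1% of the span of the 77 ribosomal protein genes, against 3.95% of all acetylated genes and 19.2% of acetylated genes in the same length range. More than 50% was covered in 22 of 77 genes (28.6%), against 1.66% of all genes and 4.77% in the same length range. The whole of Rpl41 and Rps28 was covered, and 96.4% of Rps27. The lowest cover was 9.71%, in Rps15a, whose annotated span is the longest of the 77. Acetylated at both ends were 21 of the 77 (27.3%), against 3.81% of all genes and 6.32% in the same length range, and open at both ends 12 (15.6%), against 5.63% and 5.52%. Shares over 50% cover and at both ends count genes with and without acetylation. At an end, 98.7% of the 77 were acetylated, against 49.3% of all genes and 40.0% in the same length range.

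Acetylation lay to a greater extent on the transcribed side of the start. Within 2 kb of the listed start, H3K27ac peaks covered a median of 591 bp upstream and 1233 bp downstream in the 57 ribosomal protein genes with a listed start, against 474 and 762 bp over all 8937 starts with H3K27ac in that reach. More was covered downstream in 51 of the 57 (89.5%, 95% Wilson interval 78.9 to 95.1), against 73.3% of all such starts. Where no other gene end lay within 2 kb of an end of the gene, the share was 25 of 27 (92.6%), against 82.5%. The interval for those 27 genes, 76.6 to 97.9, holds the 82.5%. Nothing upstream was covered at 6 of the 57 (10.5%), against 15.2% of all such starts: Rpl5, Rpl22, Rps24, Rps4x, Rpl38 and Rplp0. Rpl22 and Rps24 have 2 listed starts each, and only the one nearest to the annotated 5′ end was used.

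The 6 genes with more acetylation upstream were Rps25, Rpl4, Rpl7a, Rps15a, Rps21 and Rps10. With another gene end within 1 kb of the start, 10 of 13 ribosomal protein genes had more acetylation downstream, and with none that close 41 of 44 did. At Rps25, Rpl4 and Rpl7a, an end of another gene lay close upstream: Trappc4 at 166 bp from the start of Rps25, Zwilch at 283 bp from Rpl4 and Med22 at 165 bp from Rpl7a. Rps25 had 1646 bp upstream and 718 bp downstream, and Rps10 had 1598 and 1529 bp. At Rps10 the nearest other gene end lay 11792 bp away, on the downstream side.

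**Figure D3:**
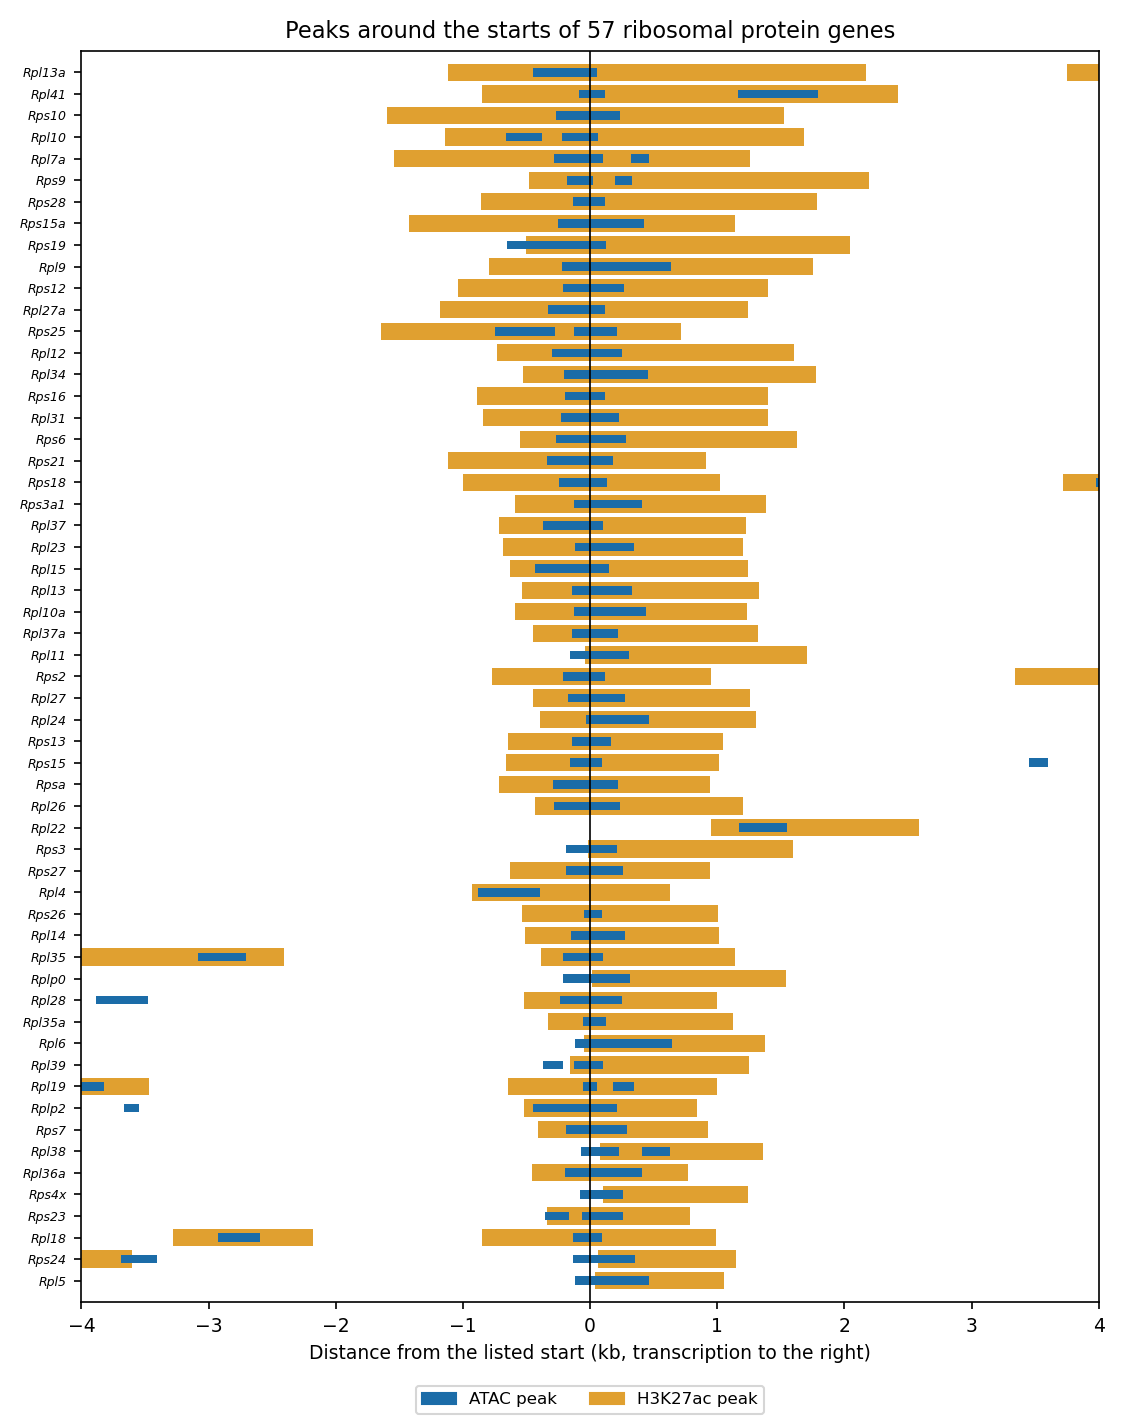
ATAC (narrow blue bars) and H3K27ac (wide yellow bars) peaks within 4 kb of the listed start of 57 ribosomal protein genes, 1 gene per line, with the distance in kb and transcription to the right. ATAC peaks cross the start in 55 of 57 genes, and most yellow bars reach further right than left.

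The listed start itself lay inside an ATAC peak in 55 of 57 ribosomal protein genes (96.5%), against 86.7% of all acetylated starts, and inside an H3K27ac peak in 51 (89.5%), against 82.2%. Mitochondrial ribosome genes were close to this, with 65 of 69 (94.2%) for ATAC and 62 of 69 (89.9%) for H3K27ac. The exceptions named next are cytoplasmic ribosomal protein genes. The exceptions for ATAC were Rpl4, with the nearest peak 390 bp away, and Rpl22, with the nearest 1174 bp away, inside the gene. Rpl22 has 2 listed starts, and the one not used here lay inside an ATAC peak. With any listed start counted, 56 of 57 genes had a start inside an ATAC peak, against 7969 of all 8937. By distance from the start, the share of ribosomal protein genes inside an H3K27ac peak was highest, at 98.2%, from 150 to 600 bp downstream and stayed at or above 50% from -550 to 1200 bp. Over all acetylated starts it was highest at 200 bp (92.3%) and stayed at or above 50% from -450 to 750 bp. The added reach of acetylation at ribosomal protein genes thus lay mostly downstream. For ATAC the range at or above 50% was -150 to 200 bp in both, but further out fewer ribosomal protein genes were inside a peak: 17.5% against 28.3% at -300 bp, and 5.26% against 18.1% at 500 bp.

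**Figure D4:**
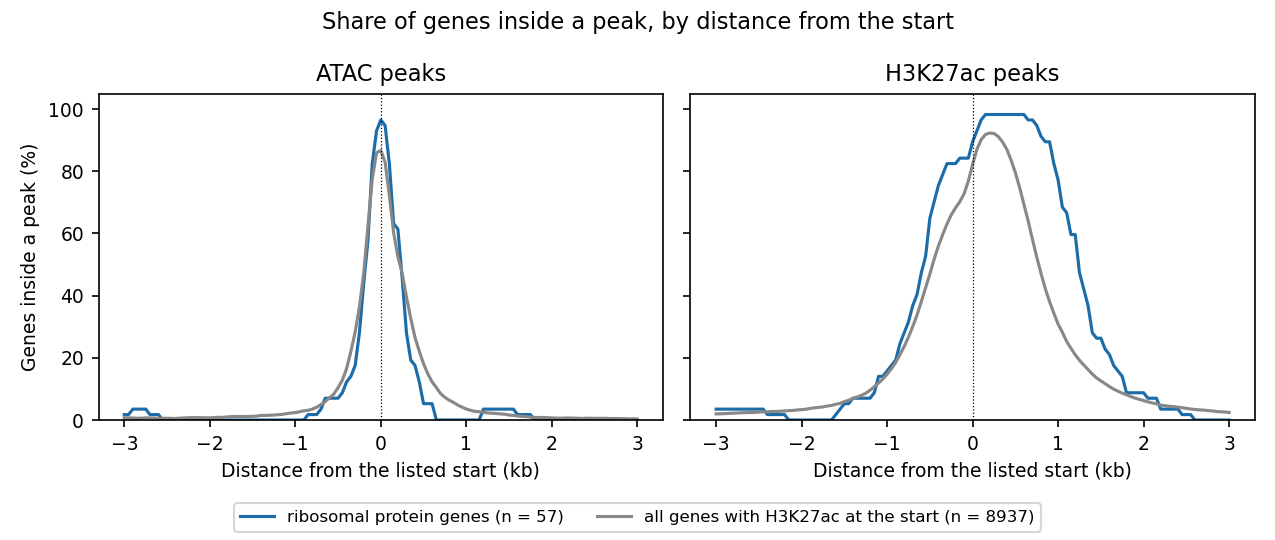
Share of genes (%) inside an ATAC peak (left panel) or an H3K27ac peak (right panel) at each distance in kb from the listed start, for 57 ribosomal protein genes (blue) and all 8937 starts with H3K27ac nearby (grey). The blue ATAC curve is higher at the start (96.5% against 86.7%) and lower in the flanks, and the blue H3K27ac curve stays at or above 50% out to 1200 bp downstream, against 750 bp for the grey curve.

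Letters in the promoters, 250 bases before to 50 after the listed start, were searched on both strands and are given as a description. CCGGAAG was present in 23 of 57 ribosomal protein promoters (40.4%), against 20.2% of the 8430 promoters of genes with both marks and 11.9% of all 17492 promoters. CGCGAGA, which is seen in lower case in Rps3a1 and Rpl26 above, was present in 13 (22.8%), against 6.17% and 3.65%. AAGATGG, bound by YY1, was present in 9 (15.8%), against 7.71% and 6.35%. CCGGAAG and AAGATGG can share the letters AAG where one runs into the other, and a promoter can hold several motifs. The Sp1 letters GGGCGG were in 34 (59.6%), between the 68.7% of genes with both marks and the 46.3% of all promoters. CACGTG was in 5 (8.77%), GCATGCG in 4 (7.02%) and TATAAA in 6 (10.5%), against 10.4%, 7.58% and 6.04% of the promoters of genes with both marks and 7.91%, 4.50% and 13.3% of all promoters. For these 3 the direction thus turned with the background.

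Many of these transcripts began with pyrimidines. The listed first base was C in 20 of 57 (35.1%), against 13.7% of all listed starts, and C followed by 4 pyrimidines in 12 (21.1%), against 2.17%. Those 12 were Rpl14, Rpl15, Rpl28, Rpl35, Rpl38, Rplp2, Rps6, Rps10, Rps15a, Rps18, Rps21 and Rps27. In the mitochondrial ribosome, whose proteins are also encoded in the nucleus, 0 of 69 began that way. A pyrimidine run of at least 8 bases within 15 bases of the start was present in 24 of 57 (42.1%), against 13.0% of the 69 mitochondrial ribosome genes and 12.0% of all. The listed start is an annotation and was not measured in these cells, and a shift by a few bases would change the first letter.

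**Figure D5:**
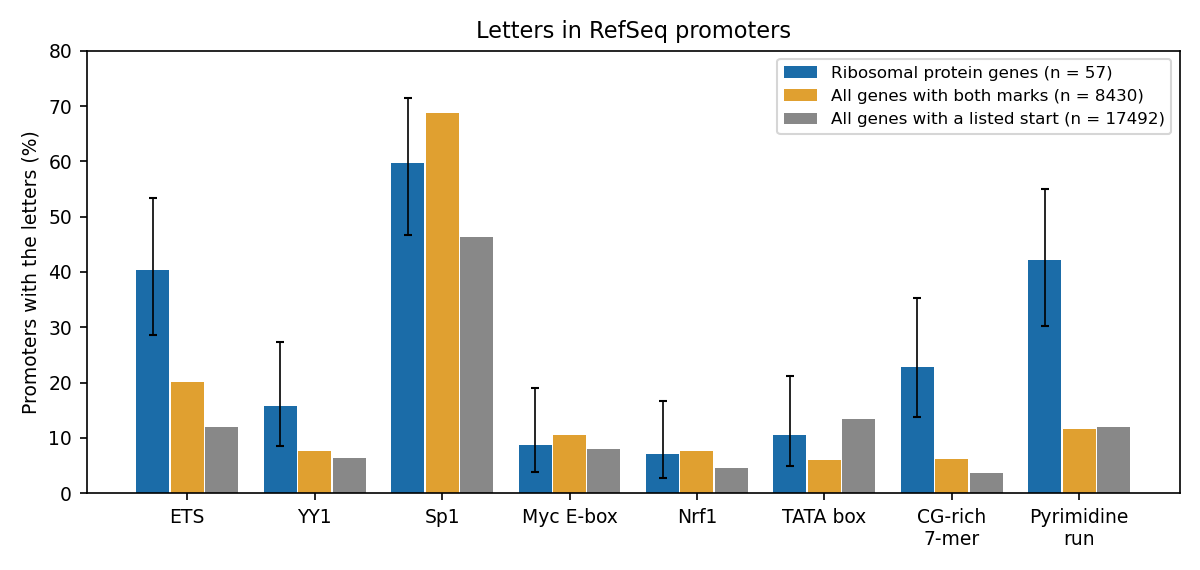
Share of promoters (%) that hold each motif, or a pyrimidine run of at least 8 bases near the start, in 57 ribosomal protein genes (blue, with 95% Wilson intervals), in all genes with both marks (yellow) and in all genes with a listed start (grey). The ETS letters stand at 40.4%, 20.2% and 11.9%, and the pyrimidine run at 42.1% in ribosomal protein genes and 12.0% in all genes.

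Inside the genes, 30 of 77 (39.0%) held 59 annotated snoRNA genes, against 1.70% of all protein-coding genes that held any. Rpl4 held 5, and Rpl7a and Rpl13a were among those with 4. Genes with a snoRNA had a median H3K27ac width of 1729 bp and those without 1675 bp, and the ATAC medians were 476.5 and 471 bp. The medians of these 2 sets differed by far less than the spread among single genes, and the difference was not tested.

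The genes were spread over 19 chromosomes, with 14 on chromosome 7. Another protein-coding gene had an end within 2 kb of 40 of the 77 (51.9%), against 32.2% of all genes. At such shared ends a peak cannot be assigned to one gene. Among the genes of the name rule whose ends lay apart from other genes, 38 of 42 were open and 37 of 42 acetylated, against 51.3% and 39.4% of all genes with ends apart.

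Distal elements, ATAC peaks over 1 kb from every gene end, had a similar mean number near ribosomal protein genes and near other genes. Within 100 kb the 77 genes had 4.71 ± 3.02 (SD over genes, median 4), against 4.20 ± 3.75 (median 3) for all genes. More of the 77 had any: at least 1 was present near 74 of 77 (96.1%), against 82.5% of all genes and 81.1% in the same length range. Elements that overlapped H3K27ac numbered 1.13 ± 1.41, against 0.99 ± 1.51 for all genes. At least 1 of these was present near 49 of 77 (63.6%), against 45.1% of all genes and 43.2% in the same length range. The most acetylated elements lay near Rpl18 (8), Rpl23 and Rps15 (5 each) and Rps3 (4), and 7 further genes had 3. None of the acetylated elements near those first 4 had the ribosomal protein gene as its nearest gene. Near 28 of the 77 there was none.

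When each element was given to its nearest gene only, the direction depended on which genes they were set beside. Ribosomal protein genes had 0.74 ± 1.23, against 1.11 ± 1.88 for all genes and 0.56 ± 1.19 for other genes of the same length range. Of acetylated elements they had 0.16 ± 0.43, against 0.25 ± 0.74 and 0.11 ± 0.45. The 12 acetylated elements belonged to 10 genes, with 2 each at Rpl12 and Rpl24. Of these 12, the ones at Rpl17, Rpl19, Rpl22, Rpl38 and Rps2 lay inside the gene, and the one at Rps2 was the peak over its listed start. Those at Rpl19 and Rpl38 began 182 and 408 bp downstream of the listed start, inside the H3K27ac peak nearest to it. Rpl17 has no listed start, and its element was the only ATAC peak inside the gene. Part of this count thus lay near starts. The 2 ways of counting put ribosomal protein genes on opposite sides of the mean over all genes, which are longer. Beside genes of the same length range their mean was higher both ways, with 4.09 ± 3.54 within 100 kb for those other genes. All of these differences were smaller than the SD over genes. That SD describes single genes and not how sure a mean is, and no difference was tested.

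Other genes of the translation machinery showed a similar picture. Initiation factors had both marks in 30 of 30 genes, and elongation and termination factors in 11 of 11, against 47.8% of all protein-coding genes. Of ribosome biogenesis factors 41 of 45 had both. Pes1 and Ubtf, needed for large subunit assembly and for RNA polymerase I transcription, lacked ATAC at an end, and Heatr1 and Rrp9 lacked H3K27ac. Ubtf lacked H3K27ac as well and had 5 ATAC peaks inside. Of 13 genes that regulate ribosomal protein synthesis, 12 had both marks, and Larp1, which binds TOP mRNAs, had neither at an end but 3 ATAC peaks inside.

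The mitochondrial ribosome had both marks in 72 of 78 genes (92.3%) and the nuclear genes of oxidative phosphorylation in 73 of 85 (85.9%), so high shares were not limited to the cytoplasmic ribosome. Their H3K27ac peaks had medians of 1213 and 1375 bp, against 1693 bp at the 76 cytoplasmic ribosomal protein genes, and initiation factors 1795 bp, elongation and termination factors 2312 bp and biogenesis factors 1518 bp. More H3K27ac downstream than upstream was found in 48 of 69 mitochondrial ribosome genes (69.6%), against 51 of 57 for the cytoplasmic one. Over all acetylated starts the share was 73.3%, and 82.5% where gene ends lay apart. Another gene end lay within 2 kb of 64.1% of mitochondrial and 51.9% of cytoplasmic ribosomal protein genes, which this contrast does not take into account. These differences between gene groups were described by counts and medians, with no test, since each assay has 1 list of peaks.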

How the data were processed

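ATAC-seq and H3K27ac ChIP-seq were each represented by the authors' deposited consensus list of peak positions (start and end in bp, with no signal, score or p-value), made from 2 samples each. Per the submitters' processing notes, cutadapt 1.18, Bowtie2 2.3.5.1, MACS2 and bedtools were used on mm10. Thresholds, the way the consensus was formed and the treatment of reads that match several places are not given in the sources used here. Depth is unknown, and the input DNA was not used here.

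The 43652 ATAC and 19924 H3K27ac peaks on the assembled chromosomes were kept and overlapped, from 1 shared bp, with 1 kb on either side of the ends of RefSeq GRCm38 gene spans. Starts, strands and sequences came from the RefSeq promoter table of the same build, taking for each gene the listed start nearest to its annotated 5′ end. Intervals are Wilson intervals at 95%. Python 3.11.15, numpy 2.4.6, pandas 2.3.3, scipy 1.17.1 and matplotlib 3.10.9 were used, and the overlap code was tested on simulated peaks. No test was made, since 1 list per assay gives no replicate spread.

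The genes, gene lists and motifs were chosen with earlier results of these data known. Genes were named by known role, by lacking a mark, by the 5 widest and 5 narrowest peaks of each assay and by most acetylated distal elements; the genes named for snoRNAs, the cover by H3K27ac, neighbouring genes and start letters, and the pseudogenes and like-genes, were chosen after their values were seen. Alternatives were other windows, the wider 50% of each list, other memberships, gene ends apart from other genes and other reaches. Results on a few single genes are not reported here.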

Additional observations from a re-analysis of the deposited data

How the results depend on the processing

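Of 41 alternatives over 11 results, 36 stayed within the interval or spread of the reported value. Apart from the promoter letters, this count judged the value of the chosen genes alone, not its distance from all genes. With the wider 50% of each list, the H3K27ac median was 1701.5 bp, against 1655 bp for all genes. With the full lists these medians were 1689.5 and 1317 bp, so the width contrast was much smaller among wide peaks. Without the 7 other entries, the open share moved to 97.4% and the acetylated share to 98.7%, against 92.9% each over 84 genes. Distal elements per gene of the 84 numbered 4.62 within 100 kb, 2.37 within 50 kb, 22.25 within 500 kb and 0.738 by nearest gene, since the reach and the assignment set which peaks count. By nearest gene the mean fell below that of all genes (1.11), whereas within 100 kb it was above (4.20). Over all alternatives the open share ranged from 85.7 to 97.4%, the acetylated share from 88.1 to 98.7% and the share with both marks from 86.9 to 94.0%. Alternatives on the letters, on the side of the start and on the other translation lists, and the 77 genes alone for widths and distal elements, were added after the data were seen. No paired analysis was possible because each assay has 1 consensus list and no values per replicate, and for the same reason leaving out a replicate could not be run. A gene without a peak may be open below the authors' threshold, and peak width depends on depth, which is unknown.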
